A study of Mus musculus with 7 samples.

Results

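The genes described here are the 38 genes of glycolysis and of pyruvate entry into the mitochondrion, measured in islets of high-fat-fed mice with or without Traf6 in their beta cells. They were taken by symbol from a list of genes by function, whose rule uses no measured value, though earlier results of these data were known when it was drawn up; all 38 were found among the 55487 genes of the count table. Aldoa had 2 rows in the table, so the list covered 39 rows; its main row is used and the other is given apart. The list held 4 transporters, 9 genes of upper glycolysis, 7 of lower glycolysis, 5 genes of the PFKFB family and TIGAR, 4 genes of the reverse steps and 9 genes of pyruvate entry.

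The study sequenced RNA from isolated mouse islets, which hold beta cells and the other endocrine cells of the pancreas. The control group had 4 libraries and the Traf6 KO group 3; the knockout was labelled as specific to beta cells. The mice of both groups had eaten a 60% fat diet for 15 weeks, and their islets recovered in culture for 24 hours after isolation, in medium that contained 10 mM sodium pyruvate. There was no group on another diet. The sources used here do not give the Cre driver, strain, age or control genotype, nor whether each library came from a separate mouse, so p-values measure the spread between these libraries.

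Glycolysis splits glucose into pyruvate in the cytosol, and in beta cells nearly all of that pyruvate is carried into the mitochondrion, where its oxidation raises ATP and triggers insulin secretion. Beta cells are known for a high-capacity glucose transporter, for an islet form of glucose phosphatase that works against glucose phosphorylation, and for very low levels of hexokinases with high affinity for glucose, of lactate dehydrogenase A and of plasma membrane lactate carriers. The pyruvate dehydrogenase complex turns pyruvate into acetyl-CoA, and its kinases switch it off. TRAF6 is a ubiquitin ligase of innate immune signalling.

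Library depth ran from 22104256 to 29917292 counts. The libraries differed in acinar (exocrine) RNA: 25 acinar genes took 19.6%, 0.476%, 0.454% and 3.16% of counts in the controls, and 54.8%, 41.9% and 1.59% in the knockouts. Here and below, values of single libraries are given in order of replicate number, 1 to 4 and 1 to 3. Control 1 and Traf6 KO 1 and 2 are called acinar-rich below and the other 4 libraries acinar-poor; this split was made from the data and is not a group of the study. Traf6 itself was at 17.9, 25.5, 22.1 and 12.6 counts-per-million (CPM) in the controls and at 14.7, 15.3 and 14.5 in the knockouts, with Control 4 the lowest of all libraries (log2 fold change -0.40 ± 0.22 (SE), adjusted p = 0.416, edgeR). The other islet cells keep the gene, and which exons were deleted was not used here, so this level neither bears out nor goes against the labels. Traf6 KO 3 alone expressed Xist (421 CPM) with Y-linked genes at 0, the pattern of a female; Pgk1, Pfkfb1, Pdha1 and Pdk3 lie on chromosome X.

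Of the 38 genes, 4 were higher in every Traf6 KO library than in every control (Hk2, Pfkfb3, Mpc1 and Dlat) and 6 were lower in every knockout library (Pfkl, Pfkm, Pgam1, Eno1, Pkm and G6pc3). Among all 16203 genes tested, 5.58% lay wholly above the controls and 8.68% wholly below, against 10.5% and 15.8% of the 38. No gene passed edgeR's quasi-likelihood test at an adjusted p under 0.05 (0 of 38 and 0 of 16203 genes, 0.0%), and the smallest adjusted p in the table was 0.176, that of Hk2 included. At an unadjusted p under 0.05, 3 of the 38 were higher (Hk2, Pfkfb3 and Pdk1) and 3 lower (Pfkl, Eno1 and G6pc3), together 15.8%, where 8.81% of all genes were higher and 7.17% lower. That share of the 38 is near the background of 15.98%, so the number of small p-values is no result about these genes.

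The 38 genes did not move together. Their median log2 fold change was -0.03, with 16 above 0 and 22 below, against a median of 0.01 over all genes tested. By role they parted: 13 of the 16 enzymes of upper and lower glycolysis were below 0 (median -0.21), including 7 of 7 in lower glycolysis (median -0.25), while 8 of 9 genes of pyruvate entry were above 0 (median 0.21). The counts of the glycolytic enzymes were the same under 3 other scalings of the libraries (DESeq2 size factors, upper-quartile factors, and factors computed without the acinar genes). With upper-quartile factors 6 of 9 genes of pyruvate entry and 13 of the 38 were above 0; with the other 2 scalings 8 of 9 and 17 of 38 were. The pyruvate entry genes were less one-sided in the fits by acinar content. Among acinar-poor libraries 5 of 9 were above 0 (median 0.00057), and among acinar-rich ones 6 of 9 (median 0.15). With acinar content as a term of the model 5 of 9 were above 0 (median 0.16). The 16 glycolytic enzymes had 13 below 0 in each of these fits (medians -0.23, -0.25 and -0.22). Traf6 KO 3, the only acinar-poor knockout, was also the only library with the female pattern. The cause of the changes between fits was not tested.

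**Figure D1:**
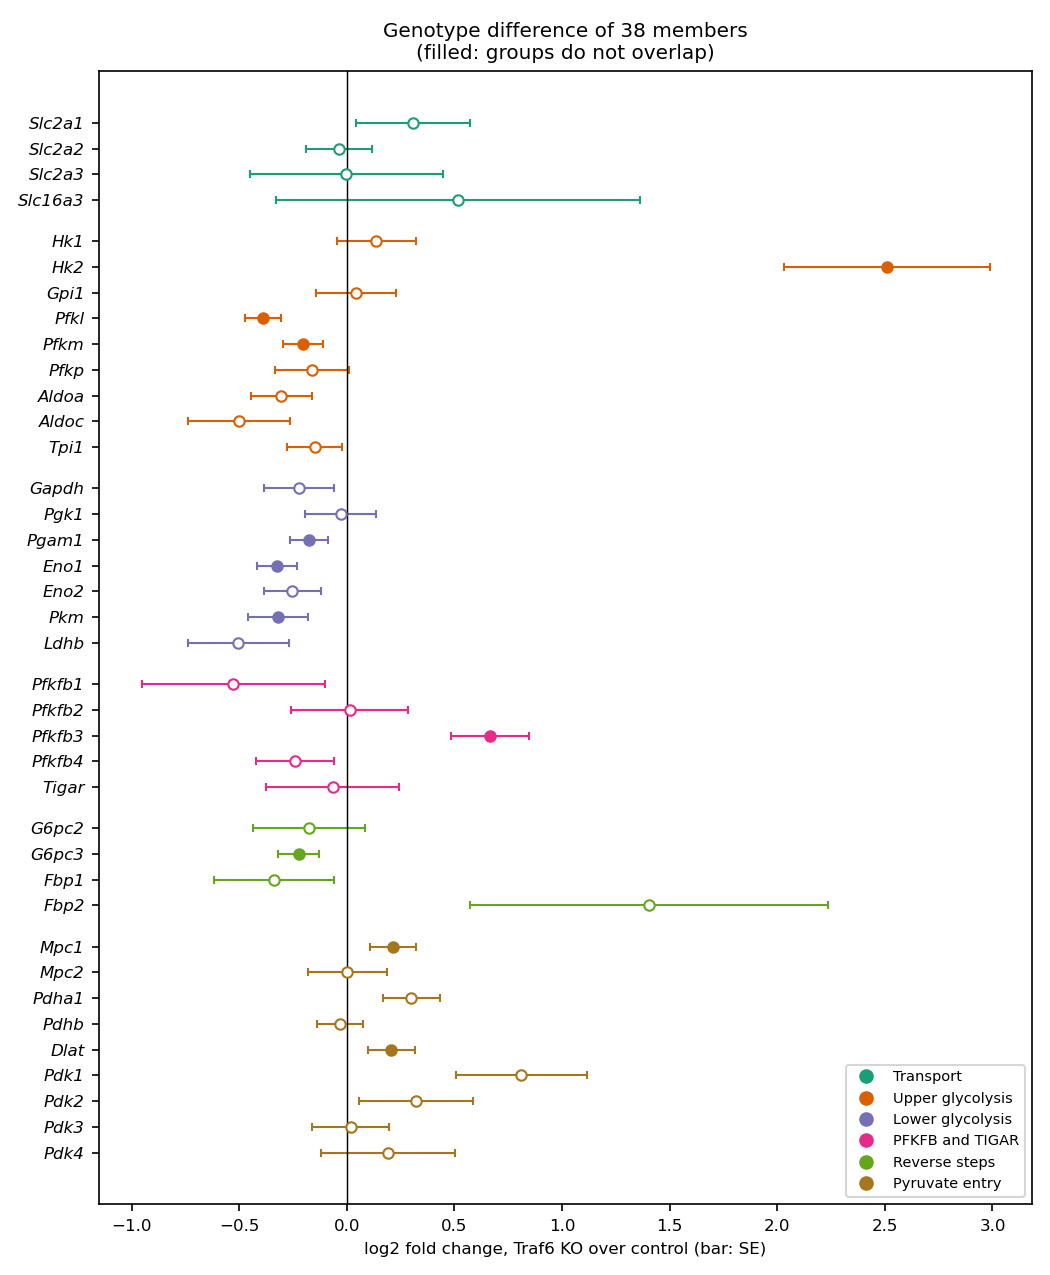
Log2 fold change of each of the 38 genes, Traf6 KO over control (x axis; bars are standard errors from edgeR), grouped by role; filled points are genes whose 3 knockout and 4 control libraries do not overlap. Lower glycolysis lies to the left of 0 in 7 of 7 genes, pyruvate entry to the right in 8 of 9, and Hk2 stands at 2.51.

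Promoter sequences of the 4 genes on which the account turns are printed here, the 2 higher (Hk2 and Pfkfb3) and the 2 lower (Pfkl and Eno1) with the smallest p-values. Each runs 5′ to 3′ on the gene's strand, 250 bases before to 50 after a start site, from RefSeq on GRCm38.p6; capitals mark the core of the hypoxia-response element, ACGTG or GCGTG, read on either strand. Hk2 lies on chromosome 6 (chr6:82774405-82774704, minus strand), the starts of Pfkfb3 on chromosome 2 (chr2:11553880-11554179 and chr2:11502041-11502340, minus strand), Pfkl on chromosome 10 (chr10:78009758-78010057, minus strand) and the outermost of the 3 Eno1 starts on chromosome 4 (chr4:150236458-150236757, plus strand).
Hk2: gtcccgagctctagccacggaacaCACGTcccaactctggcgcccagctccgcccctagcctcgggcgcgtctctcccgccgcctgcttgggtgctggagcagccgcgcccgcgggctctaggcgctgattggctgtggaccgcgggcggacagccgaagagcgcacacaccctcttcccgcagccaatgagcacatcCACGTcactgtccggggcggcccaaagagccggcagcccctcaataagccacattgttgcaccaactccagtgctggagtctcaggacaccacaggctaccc
Pfkfb3, outer start: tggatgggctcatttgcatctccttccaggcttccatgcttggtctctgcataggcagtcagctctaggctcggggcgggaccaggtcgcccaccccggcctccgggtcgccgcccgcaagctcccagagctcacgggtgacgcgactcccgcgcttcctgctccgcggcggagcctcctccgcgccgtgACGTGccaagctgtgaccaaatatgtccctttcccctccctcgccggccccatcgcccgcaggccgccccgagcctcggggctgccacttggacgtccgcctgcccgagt
Pfkfb3, inner start: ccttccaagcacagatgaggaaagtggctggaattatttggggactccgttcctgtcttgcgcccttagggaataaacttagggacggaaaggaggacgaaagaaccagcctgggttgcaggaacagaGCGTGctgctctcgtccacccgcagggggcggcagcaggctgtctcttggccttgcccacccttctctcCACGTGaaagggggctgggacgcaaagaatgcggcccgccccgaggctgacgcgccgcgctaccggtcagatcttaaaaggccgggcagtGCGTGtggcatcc
Pfkl: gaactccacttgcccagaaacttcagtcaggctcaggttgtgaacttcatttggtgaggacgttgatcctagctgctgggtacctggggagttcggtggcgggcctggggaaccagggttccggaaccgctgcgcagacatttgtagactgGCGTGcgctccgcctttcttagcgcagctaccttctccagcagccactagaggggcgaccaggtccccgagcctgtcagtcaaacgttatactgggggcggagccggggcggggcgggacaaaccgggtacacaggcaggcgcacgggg
Eno1: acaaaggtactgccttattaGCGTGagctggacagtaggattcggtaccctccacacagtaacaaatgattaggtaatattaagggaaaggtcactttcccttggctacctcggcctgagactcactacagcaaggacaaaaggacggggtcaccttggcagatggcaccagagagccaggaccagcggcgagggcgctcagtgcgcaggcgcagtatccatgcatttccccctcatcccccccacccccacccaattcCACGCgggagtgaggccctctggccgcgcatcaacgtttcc

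The Hk2 promoter held 2 such cores, Pfkl 1 and this Eno1 start 2. The outer Pfkfb3 start, at the 5′ end of the longest gene model, held 1, and the inner start held 4, of which 2 are the 2 strands of a single CACGTG, the E-box letters, which contain ACGTG. Promoters were found for 37 of the 38 genes (57 start sites). At least 1 core stood in 70.2% of these starts and in 43.8% of the 32851 starts of the table, and CACGTG in 10.5% against 7.15%. The members' starts were also richer in G and C (58.9% against 53.8% of bases), and the part of base composition in the difference was not tested. The core stood in genes that were higher, lower or alike between the genotypes, and a match is only a match of letters.

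Glucose enters the mouse beta cell mainly through GLUT2, the product of Slc2a2. Slc2a2 was at 469, 519, 488 and 546 CPM in the controls and at 417, 536 and 525 CPM in the knockouts. The groups overlapped, with Traf6 KO 1 the lowest library (log2 fold change -0.04 ± 0.15 (SE), adjusted p = 0.929). Levels of different genes were compared per kilobase of merged exons, a rough scale, as this length covers the exons of all transcript forms. Slc2a2 was at 87.8 ± 5.92 CPM per kb in the controls (SD, n = 4). On the same scale Slc2a1 (GLUT1) was at 2.32 ± 0.420 and Slc2a3 (GLUT3) at 0.391 ± 0.110. Slc2a1 ran from 6.27 to 9.86 CPM in the controls and was 10.9, 6.25 and 13.0 CPM in the knockouts, so that Traf6 KO 2 lay below every control and the other 2 above. Slc16a3, the lactate exporter MCT4, had between 1 and 44 counts in a library, the 44 in Traf6 KO 3.

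The first step, the phosphorylation of glucose by hexokinases of high affinity, showed the largest fold change of the 38 genes. Hk2 (chr6:82725025-82774454, minus strand), the insulin-responsive hexokinase of muscle and fat, was at 0.910, 0.780, 0.468 and 1.27 CPM in the controls and at 7.33, 5.22 and 2.23 CPM in the knockouts. Every knockout library lay above every control, and the 2 acinar-rich knockouts lay highest. The mean of the knockouts was 5.75 times that of the controls (log2 fold change 2.51 ± 0.48 (SE), adjusted p = 0.176). These are low levels, resting on 16 to 36 counts in a control and 69 to 97 in a knockout.

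Hk2 stood at 0.910 CPM where 19.6% of counts were acinar (Control 1) and at 2.23 CPM where 1.59% were (Traf6 KO 3), as shown in the plot of gene level against acinar share. Between Traf6 KO 3 and the 3 acinar-poor controls the log2 fold change was 1.41 (adjusted p = 0.317), and between the acinar-rich libraries it was 2.75 (adjusted p = 0.000964). Every knockout lay above every control, so a higher level within both kinds of library followed from that, and only the sizes are added. The same holds below for other genes whose groups did not overlap. In each of these fits a group is a single library and is assumed to vary as the other group does. With acinar content as a term of the model, the log2 fold change of Hk2 was 1.68, against 2.51 without that term. No gene of another cell type was called, and only the signs of their log2 fold changes are given here. All 25 acinar genes were above 0, where 50.7% of all genes tested were. So were 6 of 7 ductal, 8 of 9 fibroblast or stellate and 5 of 7 lymphocyte genes. Below 0 were 7 of 8 endothelial, 7 of 8 macrophage, 5 of 6 alpha-cell and 3 of 4 delta- and gamma-cell genes. The alpha-cell genes had a median of only -0.07, with 6 of 6 above 0 among acinar-poor libraries and 0 of 6 among acinar-rich ones. Without Control 4, 4 of 7 macrophage genes were above 0. The summed fibroblast and stellate genes ran from 36.1 to 97.5 CPM in the controls and were 230, 47.4 and 120 CPM in the knockouts; the lymphocyte genes were at 14.9 to 68.3 CPM and at 74.1, 34.3 and 453 CPM. Their part in the Hk2 level was not tested.

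**Figure D2:**
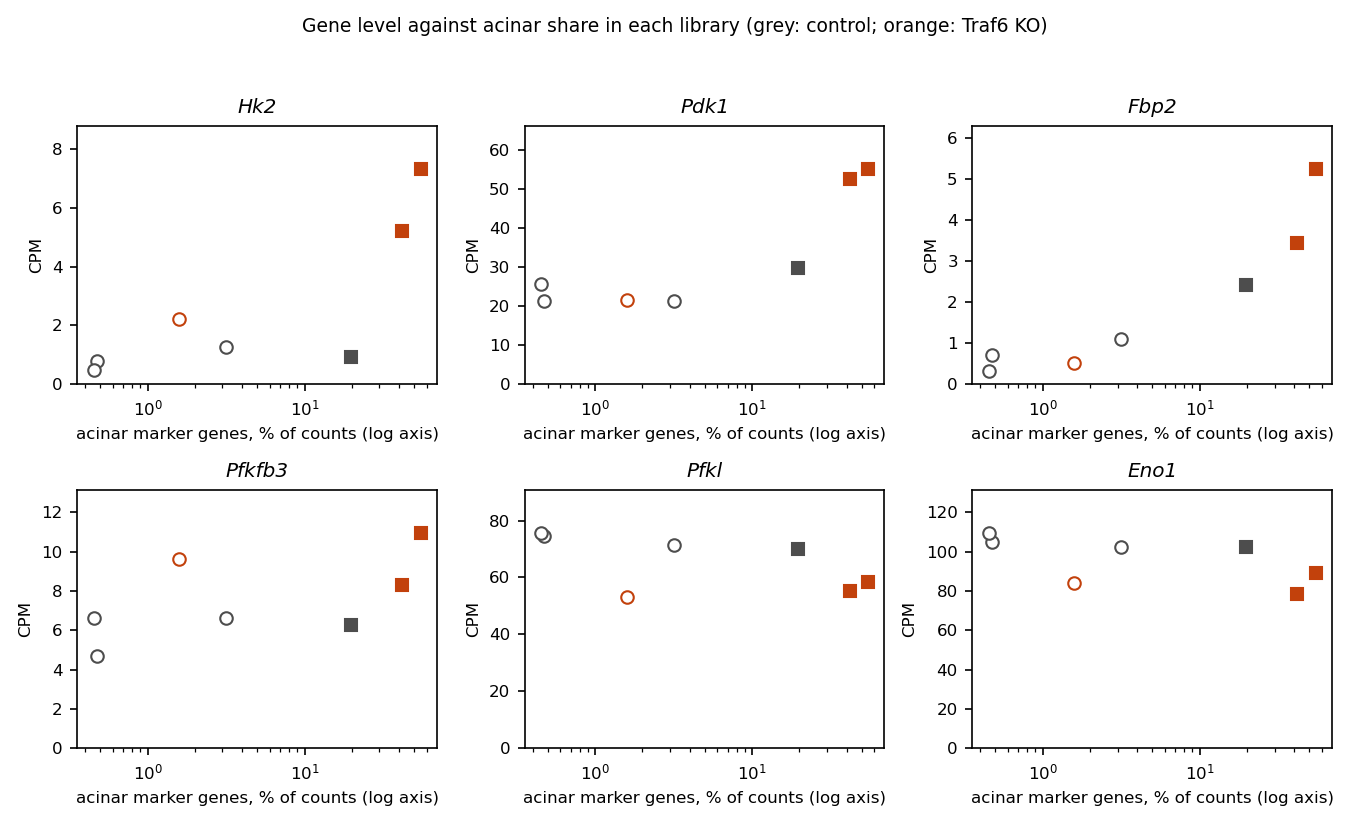
Level of 6 genes (y axes, CPM) against the share of counts in 25 acinar genes (x axes, percent, log scale), 1 point a library; grey is control, orange Traf6 KO, squares are acinar-rich libraries and open circles acinar-poor ones. Pdk1 and Fbp2 are high in the 2 knockouts with 41.9% and 54.8% acinar counts and not in Traf6 KO 3; Pfkl and Eno1 are lower in all 3 knockouts at either end of the axis.

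Hk1, the hexokinase of brain and most other tissues, did not part the groups. Its level was 8.79, 10.5, 9.69 and 10.4 CPM in the controls and 12.9, 7.97 and 11.7 CPM in the knockouts (log2 fold change 0.14 ± 0.18 (SE), adjusted p = 0.745). Within a library the ratio of Hk2 to Hk1 counts, which no scaling of libraries can move, was 0.0483 to 0.122 in the controls and 0.566, 0.655 and 0.192 in the knockouts. The groups did not overlap, and the exact permutation test (two-sided, 35 assignments) gave p = 0.0571, the smallest that 4 against 3 libraries allow (adjusted p = 0.171 over 12 ratios).

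**Figure D3:**
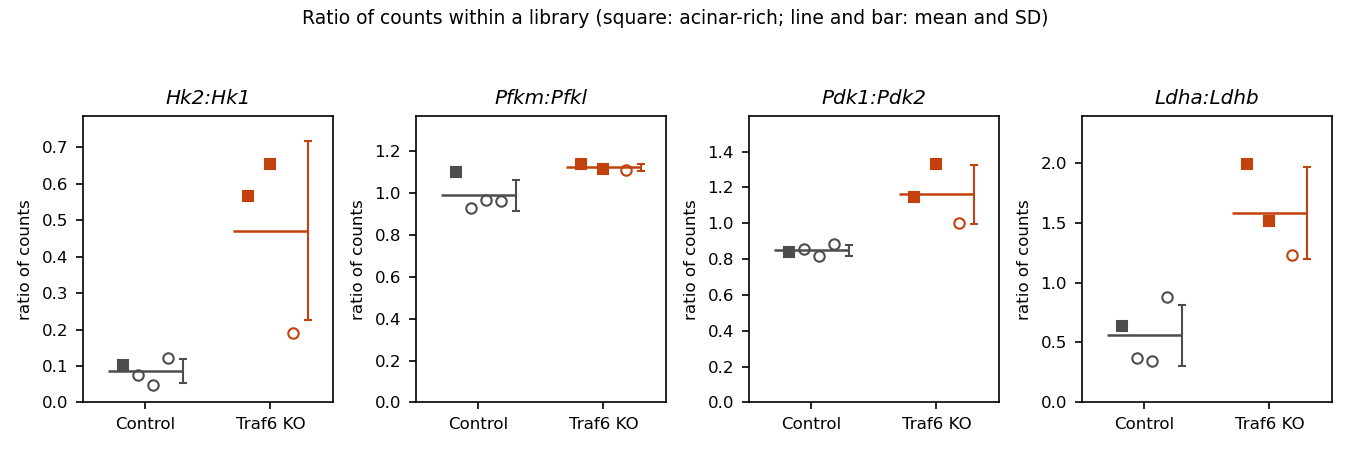
Ratio of counts of gene pairs within each library (y axes, no unit), by genotype; squares are acinar-rich libraries, lines are means and bars SDs. In these 4 of the 12 pairs the 3 knockout libraries lie above all 4 controls.

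Phosphofructokinase commits sugar to glycolysis, and its subunits come from 3 genes. Pfkl, the liver-type subunit (chr10:77986947-78010083, minus strand), was at 70.2, 74.7, 75.6 and 71.3 CPM in the controls and at 58.5, 55.3 and 53.2 CPM in the knockouts. The groups were well apart, with at most 5.46 CPM between any 2 controls. The knockout mean was 0.763 times the control mean (log2 fold change -0.39 ± 0.09 (SE), adjusted p = 0.183). It was -0.48 among acinar-poor and -0.32 among acinar-rich libraries.

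Pfkm, the muscle-type subunit, was at 77.1, 69.3, 73.1 and 68.5 CPM in the controls and at 66.7, 61.6 and 59.1 CPM in the knockouts. The gap between the groups was narrow, 1.81 CPM (log2 fold change -0.21 ± 0.09 (SE), adjusted p = 0.326), and it closed when libraries were scaled by DESeq2's size factors or without the acinar genes. Pfkp, the platelet-type subunit, overlapped between the groups; its gene shares 748 bases with Pitrm1 on the other strand, and no source used here says whether counting used strand. Per kilobase of merged exons, the controls had Pfkm at 21.6 ± 1.18, Pfkl at 10.9 ± 0.393 and Pfkp at 2.12 ± 0.243 CPM per kb (SD, n = 4). Neighbours in that order did not overlap. The place of Pfkm above Pfkl rests on the lengths used, 3340 and 6675 bases, as their control means were 72.0 and 73.0 CPM. The ratio of Pfkm to Pfkl counts was 0.928 to 1.10 in the controls and 1.11 to 1.14 in the knockouts (exact permutation p = 0.0571, adjusted p = 0.171), but the acinar-rich Control 1, at 1.10, was close to the knockouts.

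Among the other upper enzymes, Gpi1, which turns glucose phosphate into fructose phosphate, and Tpi1, which interconverts the triose phosphates, overlapped between the groups. Aldoa, the main aldolase, was at 344 to 437 CPM in the controls and at 356, 300 and 313 CPM in the knockouts (log2 fold change -0.30 ± 0.14 (SE), adjusted p = 0.341); the overlap was that of Traf6 KO 1 with Control 4. Its other row stayed below 1 CPM in every library. Aldoc, the brain-type aldolase, was at 12.9 to 17.6 CPM in the controls and at 6.88, 10.99 and 13.8 CPM in the knockouts, so that the acinar-poor Traf6 KO 3 lay among the controls.

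In lower glycolysis, where ATP and pyruvate are made, 3 of 7 genes were lower in every knockout library. Eno1, the ubiquitous enolase (chr4:150236721-150248879, plus strand), was at 102, 105, 110 and 103 CPM in the controls and at 89.3, 78.3 and 83.9 CPM in the knockouts. The knockout mean was 0.799 times the control mean (log2 fold change -0.32 ± 0.09 (SE), adjusted p = 0.205), and the difference was -0.34 among acinar-poor and -0.30 among acinar-rich libraries. Reads of 3 near-identical genes could be counted for it or against it; they held at most 2.33% of the summed level.

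Pkm encodes pyruvate kinase, the last step of glycolysis. It was at 627, 671, 652 and 610 CPM in the controls and at 513, 472 and 553 CPM in the knockouts, with no overlap (log2 fold change -0.32 ± 0.14 (SE), adjusted p = 0.320). The muscle splice forms of pyruvate kinase cannot be told apart in gene counts. Pgam1, a phosphoglycerate mutase, was at 46.9, 45.0, 47.5 and 43.4 CPM in the controls and at 39.4, 43.3 and 38.7 CPM in the knockouts (log2 fold change -0.18 ± 0.09 (SE), adjusted p = 0.366). Traf6 KO 2 lay just under Control 4, and the groups overlapped under 2 of the 3 other scalings and when Pgam1-ps2, its near-identical copy, was added.

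Gapdh, often used as a reference gene, was at 285, 304, 304 and 256 CPM in the controls and at 260, 193 and 286 CPM in the knockouts. The groups overlapped, and Traf6 KO 2 was the lowest library (log2 fold change -0.22 ± 0.16 (SE), adjusted p = 0.525). Its 73 near-identical copies held 7.68% to 8.74% of the summed level, and with them the log2 ratio of means was -0.23. Pgk1, Eno2 (the neuronal and endocrine enolase) and Ldhb overlapped too. Ldhb, the lactate dehydrogenase subunit of heart, was at 18.9, 22.2, 32.2 and 21.8 CPM in the controls and at 21.9, 15.6 and 13.0 CPM in the knockouts; its log2 fold change was -0.97 in acinar-poor and -0.03 in acinar-rich libraries.

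Summed over the 16 enzymes of upper and lower glycolysis, the controls held 2049, 2117, 2148 and 1889 CPM and the knockouts 1855, 1583 and 1754 CPM. With the TMM scaling used for CPM the groups did not overlap, by a gap of 34.6 CPM between Control 4 and Traf6 KO 1. Pkm, Aldoa and Gapdh weigh most in this sum, and Aldoa and Gapdh overlapped between the groups on their own. Of the 16 genes, 12 were lower in the knockout both among acinar-poor and among acinar-rich libraries, which share no library. Of the rest, 2 were higher in both and 2 went opposite ways. Over all libraries, 5 of the 16 lay below every control and 1 above, as did 8.68% and 5.58% of all genes tested. The signs of these in both comparisons were thus largely set in advance. Over all genes with a value in both, 61.6% of 15614 had the same sign in both comparisons, against 87.5% of the 16 enzymes and 70.3% of 37 of the 38 genes (Slc16a3 was too low in the acinar-rich libraries).

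**Figure D4:**
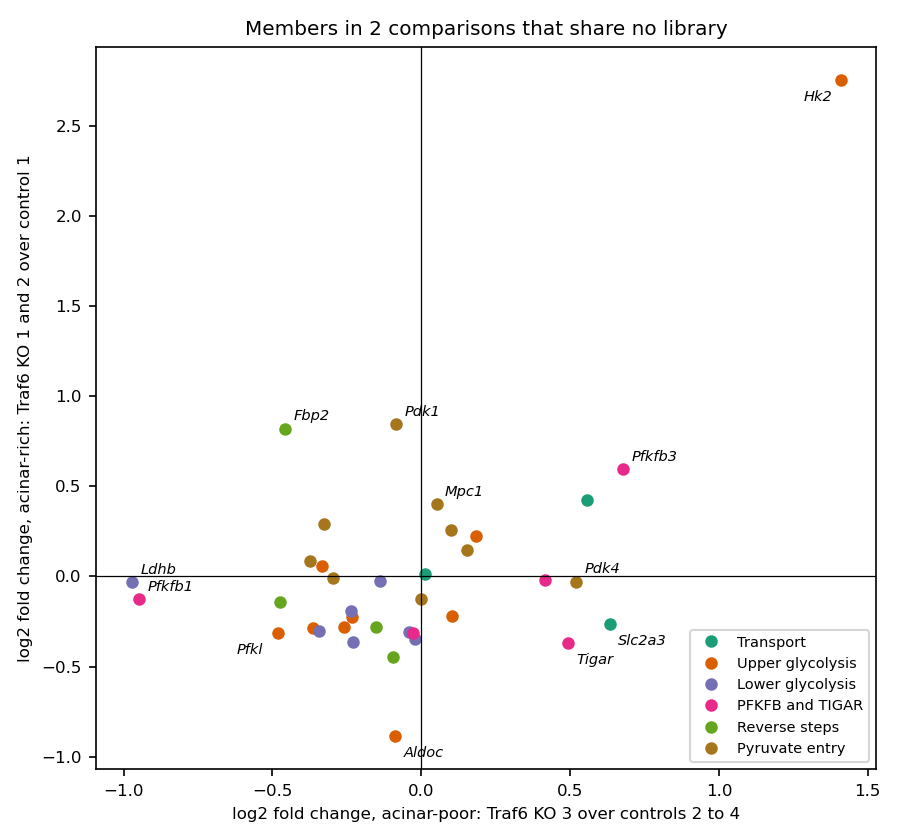
Log2 fold change of 37 genes in the acinar-poor libraries (x axis, Traf6 KO 3 over Control 2 to 4) and in the acinar-rich ones (y axis, Traf6 KO 1 and 2 over Control 1), coloured by role. Hk2 and Pfkfb3 lie at the upper right, Pfkl and most glycolytic enzymes at the lower left, and Pdk1 and Fbp2 are above 0 only in the acinar-rich libraries.

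Beta-cell genes were lower in the same libraries. All 10 beta-cell genes tested, of which Slc2a2 and G6pc2 are also among the 38, had log2 fold changes below 0 (median -0.36). Of the 10, 5 lay below every control in all knockouts, as did 8.68% of all genes tested. Among acinar-poor libraries 4 of 10 were above 0 (median -0.17), and among acinar-rich ones 1 of 10 (median -0.55). With acinar content as a term of the model 2 of 10 were above 0 (median -0.26). Summed, the beta-cell genes ran from 155789 to 189883 CPM in the controls and from 89592 to 115905 CPM in the knockouts. Red-cell genes, a cell type that lives on glycolysis, summed to 36.0 to 176 CPM in the controls and 23.1 to 30.6 CPM in the knockouts, with 5 of 5 lower. Fewer beta cells and less RNA per beta cell cannot be told apart in bulk islets, and the part of either list in the lower enzyme levels was not tested.

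The PFKFB enzymes make or break the bisphosphate that activates phosphofructokinase, and TIGAR breaks it. Pfkfb3 (chr2:11471433-11554077, minus strand), the form with the strongest synthetic activity, was at 6.27, 4.68, 6.64 and 6.64 CPM in the controls and at 10.9, 8.29 and 9.62 CPM in the knockouts. Every knockout library lay above every control. Its knockout mean was 1.59 times the control mean (log2 fold change 0.67 ± 0.18 (SE), adjusted p = 0.203). The difference was 0.68 among acinar-poor and 0.60 among acinar-rich libraries, and 0.61 when acinar content was a term of the model.

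Pfkfb2, the most abundant PFKFB gene in the controls at 5.29 ± 0.757 CPM per kb (SD, n = 4), was at 30.9, 38.4, 40.5 and 43.8 CPM in the controls and at 22.4, 38.5 and 54.9 CPM in the knockouts. The knockouts lay below, among and above the controls. Tigar was at 22.7 to 27.9 CPM in the controls and at 12.7, 22.5 and 37.5 CPM in the knockouts, 2 of them below and 1 above the controls, so that the knockout with most acinar RNA had the least. Gm29427, a gene model that overlaps Pfkfb2, stayed at or under 0.486 CPM. Pfkfb4 and the scarce Pfkfb1 (at most 1.09 CPM) overlapped between the groups. The ratio of Pfkfb3 to Pfkfb2 counts was 0.122 to 0.203 in the controls and 0.488, 0.215 and 0.175 in the knockouts (exact permutation p = 0.114, adjusted p = 0.274).

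Of the reverse steps, G6pc2, the islet glucose phosphatase, was the most abundant of the 38 genes per kilobase, at 997 ± 191 CPM per kb in the controls (SD, n = 4). It was at 2093, 1974, 2351 and 1454 CPM in the controls and at 1734, 2096 and 1396 CPM in the knockouts, and the groups overlapped (log2 fold change -0.18 ± 0.26 (SE), adjusted p = 0.773). G6pc3, the ubiquitous glucose phosphatase, varied little among the controls, at 33.7, 34.1, 33.1 and 34.0 CPM, and was at 30.6, 25.5 and 30.5 CPM in the knockouts. All 3 knockouts lay below (log2 fold change -0.22 ± 0.10 (SE), adjusted p = 0.313).

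The fructose bisphosphatase genes were low. Fbp2, the muscle form, followed the acinar share, with 5.25 and 3.45 CPM in Traf6 KO 1 and 2, 2.42 CPM in Control 1, and 0.322 to 1.09 CPM in the 4 acinar-poor libraries. Fbp1, the liver form, was at 3.51 to 7.27 CPM in the controls and 3.89, 3.93 and 5.31 CPM in the knockouts.

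Pyruvate enters the mitochondrion through a carrier made of MPC1 and MPC2. Mpc1 was at 31.2, 34.4, 36.5 and 36.0 CPM in the controls and at 45.1, 38.2 and 37.2 CPM in the knockouts. The groups did not overlap, but Traf6 KO 3 was only just above Control 3 (log2 fold change 0.22 ± 0.11 (SE), adjusted p = 0.364), and the acinar-poor libraries gave 0.05. Mpc2 was at 33.1, 28.0, 35.9 and 29.5 CPM in the controls and at 41.1, 30.1 and 24.2 CPM in the knockouts (log2 fold change 0.00 ± 0.18 (SE), adjusted p = 0.997), and its sign turned with the setting. The knockouts were the highest, the middle and the lowest of its values.

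In the pyruvate dehydrogenase complex, Dlat, the acetyltransferase core, was at 38.3, 38.3, 36.0 and 32.2 CPM in the controls and at 39.0, 46.6 and 39.7 CPM in the knockouts. Its groups did not overlap (log2 fold change 0.21 ± 0.11 (SE), adjusted p = 0.384), though Traf6 KO 1 exceeded Control 1 by 0.644 CPM. Pdha1, the catalytic alpha subunit, was at 78.3, 73.3, 72.5 and 60.9 CPM in the controls and at 98.1, 90.7 and 74.4 CPM in the knockouts, with Traf6 KO 3 below Control 1 (log2 fold change 0.30 ± 0.13 (SE), adjusted p = 0.318). Pdhb, the beta subunit, overlapped, at 55.8 to 71.7 CPM in the controls and 62.7 to 63.7 CPM in the knockouts.

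Pdk1, a kinase that switches off the complex, was at 29.7, 21.3, 25.7 and 21.3 CPM in the controls and at 55.1, 52.5 and 21.6 CPM in the knockouts. The 2 acinar-rich knockouts stood at about the same high level, and Traf6 KO 3 lay among the controls (log2 fold change 0.81 ± 0.30 (SE), adjusted p = 0.268). The acinar-poor libraries gave -0.08, the acinar-rich ones 0.85 and the model with acinar content as a term 0.22. Pdk2 ran the same way, with 24.1 to 35.3 CPM in the controls and 47.9, 39.4 and 21.6 CPM in the knockouts. The ratio of Pdk1 to Pdk2 counts nonetheless held the groups apart, at 0.814 to 0.883 in the controls and 1.15, 1.33 and 1.00 in the knockouts (exact permutation p = 0.0571, adjusted p = 0.171). Pdk3 and Pdk4 overlapped between the groups, and Pdk4 had its highest value, 33.05 CPM, in Control 2.

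**Figure D5:**
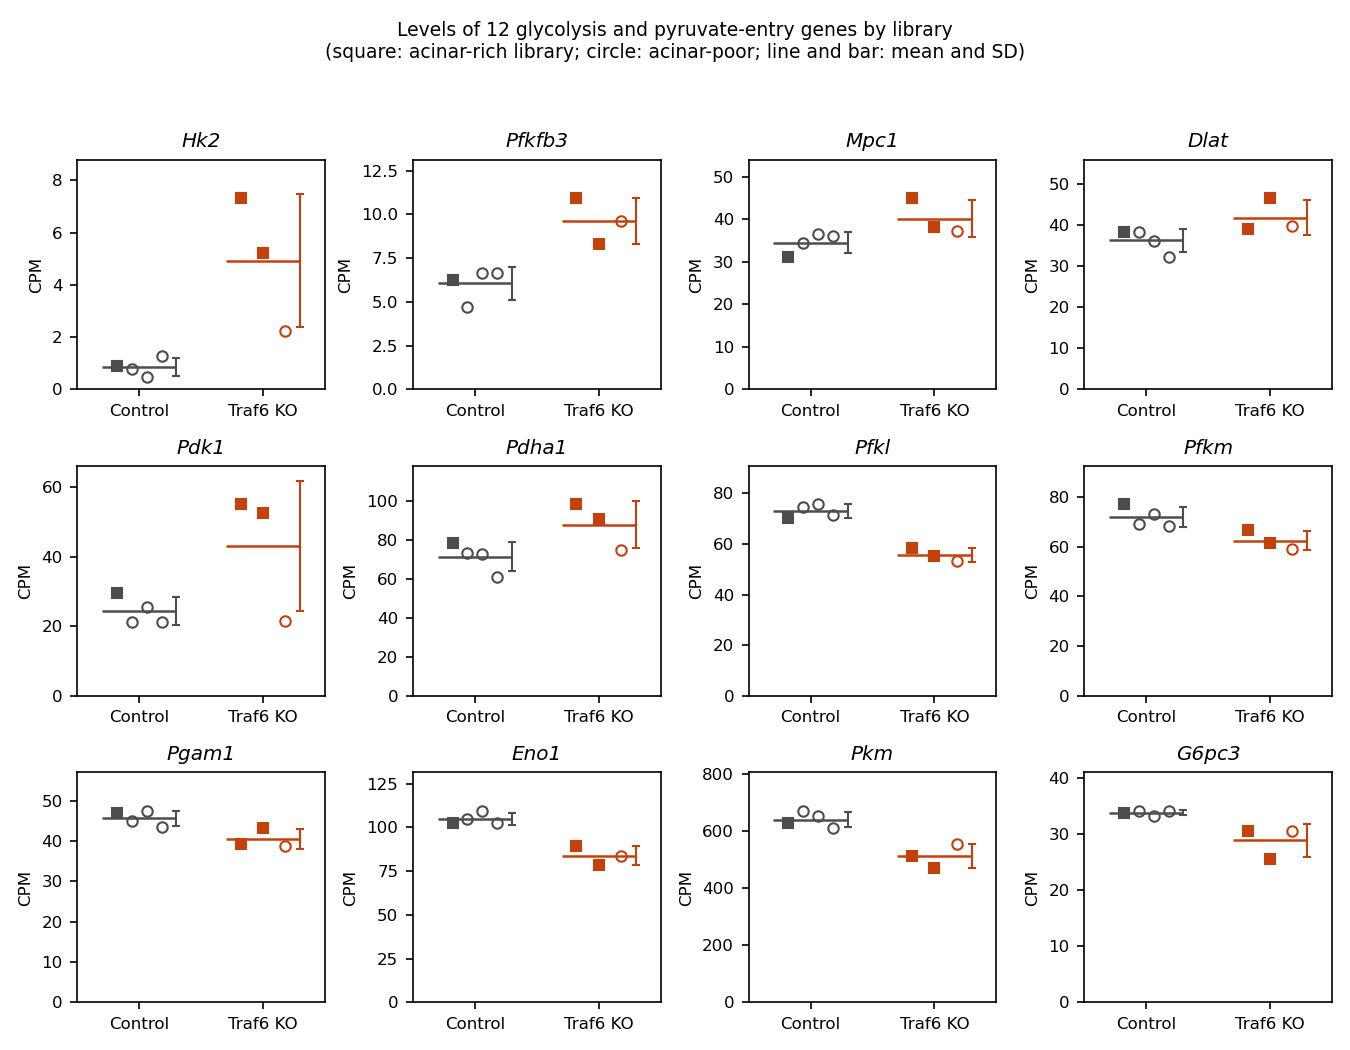
Level of 12 genes (y axes, CPM) in the 4 control and 3 Traf6 KO libraries; squares are acinar-rich libraries, circles acinar-poor ones, lines are means and bars SDs. Hk2, Pfkfb3, Mpc1 and Dlat lie wholly above the controls, Pfkl, Pfkm, Pgam1, Eno1, Pkm and G6pc3 wholly below, and Pdk1 and Pdha1 overlap through Traf6 KO 3.

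Other tests made a few calls. DESeq2's Wald test called Hk2 and Pfkfb3 higher and Pfkl, Eno1 and Pkm lower, 5 of 36 members with an adjusted p, where it called 3.43% of all genes higher and 1.79% lower. Limma-voom with sample quality weights called Hk2 and Pdk1 higher and Pfkl, Eno1 and Pkm lower, 5 of 38, with 4.13% and 2.33% of all genes. Leaving out Traf6 KO 3, edgeR called Hk2 and Pdk1 higher and none of the 38 lower, with 3.43% and 0.804% of all genes. Limma-voom without weights called none. The library tags begin with Q, R or S, letters the labels do not explain, and both groups hold Q and S libraries. A term for S against Q and R together was added to the edgeR model. The log2 fold changes were then 2.48 for Hk2, 0.66 for Pfkfb3, -0.39 for Pfkl and -0.32 for Eno1. Under the 3 other scalings, 7 of the 10 genes kept their groups apart every time (Hk2, Pfkfb3, Mpc1, Pfkl, Eno1, Pkm and G6pc3).

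Around these genes, 26 of 28 further genes of glycolysis and pyruvate use were tested and none was called; 18 were above 0 and 8 below (median 0.18). Among acinar-poor libraries 10 of 26 were above 0 (median -0.051), and with acinar content as a term of the model 15 of 26 (median 0.058). Ldha, the lactate dehydrogenase subunit of muscle, was at 12.05, 8.19, 11.2 and 19.2 CPM in the controls and at 43.6, 23.6 and 16.03 CPM in the knockouts, with Traf6 KO 3 below Control 4 (log2 fold change 1.12 ± 0.38 (SE), adjusted p = 0.240). Against Ldhb the groups parted: the ratio of Ldha to Ldhb counts was 0.349 to 0.883 in the controls and 1.99, 1.51 and 1.23 in the knockouts (exact permutation p = 0.0571, adjusted p = 0.171). Slc16a1, the lactate carrier MCT1, was at most 2.97 CPM in any library, a value in Control 4, and overlapped between the groups.

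Of the other genes named by their p-values, Eno3, the muscle enolase, was lower in every knockout (19.8 to 28.3 CPM against 12.6, 16.2 and 17.9 CPM; log2 fold change -0.63 ± 0.17 (SE), adjusted p = 0.201). Hkdc1, a hexokinase-like gene, was at 0 to 0.525 CPM in the controls and at 6.51, 2.85 and 0.518 CPM in the knockouts, and Gpt2, the mitochondrial alanine transaminase, was at 6.85 to 10.6 CPM against 36.6, 24.3 and 7.32 CPM. Both were high only in the 2 acinar-rich knockouts. Pcx, the pyruvate carboxylase that feeds the citric acid cycle in beta cells, was at 133 to 148 CPM in the controls and at 151, 134 and 96.6 CPM in the knockouts.

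None of 15 citric acid cycle genes was called, and their median was -0.03; Suclg2 (log2 fold change 0.55) and Cs, the citrate synthase (0.33), had the smallest p-values, each with Traf6 KO 3 inside the control range. None of 7 pentose phosphate genes was called (median -0.07), and Pgd alone was lower in every knockout (44.4 to 50.7 CPM against 42.2, 40.0 and 41.1 CPM). The 10 genes of the redox shuttles had a median of 0.04, and no group of libraries stood apart in any of them.

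Of 19 genes of the oxygen response, 16 were tested and none was called. Hif1a, the oxygen-sensitive transcription factor subunit, was at 40.5, 43.8, 37.6 and 42.2 CPM in the controls and at 45.1, 59.3 and 57.3 CPM in the knockouts, with no overlap (log2 fold change 0.40 ± 0.12 (SE), adjusted p = 0.217). Among known targets of the pathway, Ndrg1 was higher by 0.36, P4ha1 lower (-0.26), and Vegfa was at 358 to 468 CPM in the controls and 262, 357 and 530.5 CPM in the knockouts. The list's median was 0.09, with 10 of 16 above 0.

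Among 6 genes of the carbohydrate response, Txnip, which is driven by glucose through the ChREBP family, was at 267.2, 339, 469 and 225 CPM in the controls and at 495, 415.5 and 630 CPM in the knockouts. Control 3 was above Traf6 KO 2, and the groups overlapped (log2 fold change 0.66 ± 0.27 (SE), adjusted p = 0.295). Mlxip (MondoA) lay just above the controls in every knockout (36.7 to 39.57 CPM against 39.62, 51.8 and 52.6 CPM), while Mlxipl (ChREBP) was at 255 to 351 CPM against 133, 229 and 315 CPM.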

How the data were processed

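Islet RNA of 4 control and 3 Traf6 KO libraries was sequenced as 151 bp read pairs. The authors deposited whole-number counts per Ensembl gene, with no header on their making; the submitters' processing notes name FastQC, STAR 2.6.1b, RSEM 1.3.1 and GRCm38; no source used here gives the annotation or strand setting. Counts were tested as deposited with edgeR 4.0.16 (TMM factors, filterByExpr with a minimum count of 10 and total of 15, quasi-likelihood test, Benjamini-Hochberg adjustment over 16203 genes; threshold 0.05) in R 4.3.3. CPM are scaled by TMM factors; CPM per kb divide by merged exon length (GENCODE M21). Log2 ratios of counts were compared by exact permutation with scipy 1.17.1. Total counts were 22104256 to 29917292 a library, and n of 4 and 3 limits precision. Alternatives were DESeq2 1.42.0, limma-voom (limma 3.58.1), other scalings and filters, each library left out, and fits by acinar content. Near-identical copies were sought with blastn 2.17.0 (at least 95% identity over 500 bases). No 2 libraries agreed within counting noise. Scripts were tested on simulated data.

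Every one of the 38 genes is accounted for; full statistics are given for those whose groups did not overlap or with an unadjusted p under 0.05, and for Slc2a2, Hk1, Gapdh, G6pc2 and Mpc2. Of the pathway lists, up to 3 genes with the smallest p a list are named, besides Ldha, Slc16a1, Pcx, Vegfa, Hif1a and Txnip. The members, lists and rules were chosen with earlier results of these data known. The split by acinar content and the sums with copies were chosen after seeing the data.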

Additional observations from a re-analysis of the deposited data

Results flagged for a closer look

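Among 50 values of the control group tested for a library far from the other 3 (Dixon's ratio above its 95% critical value, which chance exceeds in about 1 in 20 groups), 2 stood out, both ratios of counts. Pfkp over Pfkl was 0.441 in Control 2 and 0.363 to 0.376 in the other controls; Pitrm1, which overlaps Pfkp on the other strand, was also highest among the controls in Control 2, at 47.7 CPM against 36.1 to 39.2 CPM. Fbp2 over Fbp1 was 0.457 in Control 1 and 0.0917 to 0.150 in the other controls; Control 1 held 19.6% acinar counts and the other controls 0.454% to 3.16%. The part of neither was tested.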

How the results depend on the processing

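The count of genes called, 0 by edgeR, was 744 with DESeq2's Wald test, 1046 with quality-weighted limma-voom, 0 to 701 with a library left out (701 without Traf6 KO 3), 5 with the replicate block, 3 with the acinar level as a covariate, 67 among acinar-poor and 467 among acinar-rich libraries. Of the 38 genes, DESeq2 called 5, quality-weighted limma-voom 5, edgeR 0 to 2 with a library left out (2 without Traf6 KO 3) and 1 among acinar-rich libraries; the other settings called 0. Genes without overlap, 10, came to 9 to 20 with a library left out (20 without Traf6 KO 3). They came to 23 among Q- and R-tagged libraries, 25 among acinar-poor and 23 among acinar-rich ones. In all of these settings fewer libraries make separation easier. The matching shares of all genes are not given here, so these counts are no result about the 38 genes. Same-numbered libraries deviated from their group means with correlations of 0.60, -0.18 and 0.45. These deviations include the differences in acinar content, so they cannot decide whether the numbers pair the samples. The replicate block called none of the 38 genes.

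These directions turned. Pdk1, at 0.81 over all libraries, gave -0.085 in acinar-poor libraries. Slc2a2 gave 0.029 with quality weights, 0.043 with the acinar covariate, 0.013 in acinar-poor and 0.012 in acinar-rich libraries, and -0.093 to 0.080 with a library left out. Hk1 gave -0.15 with quality weights. Mpc2 gave -0.038 with upper-quartile factors, -0.073 with limma-voom, -0.056 with weights, -0.022 without a filter, -0.050 with the replicate block, -0.22 with the acinar covariate, -0.37 in acinar-poor libraries and -0.21 to 0.17 with a library left out. Pcx gave 0.038 in Q- and R-tagged and 0.058 in acinar-rich libraries, and -0.26 to 0.026 with a library left out; Vegfa gave 0.18 with the covariate, 0.25 in acinar-poor libraries and -0.45 to 0.075.

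Of the 12 ratios, 7 kept their direction in every setting. Pfkp:Pfkl gave -0.026 in Q- and R-tagged libraries and -0.0095 to 0.41 with a library left out; Aldoc:Aldoa 0.28 in acinar-poor libraries and -0.50 to 0.095; Eno2:Eno1 -0.048 in Q- and R-tagged and -0.0067 in acinar-rich libraries and -0.078 to 0.21; G6pc3:G6pc2 0.29 in acinar-poor libraries, 0.087 with the replicate block and -0.25 to 0.17; Fbp2:Fbp1 -0.27 in acinar-poor libraries. The cause was not tested. Depth limits Hk2, Fbp2, Slc16a3 and Pfkfb1, which had under 100 counts in every library.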
